A study of Mus musculus with 6 samples.

Results

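The NME genes encode nucleoside diphosphate kinases, and 7 of them, Nme1 to Nme7, were taken by gene symbol from the 15639 rows of a hippocampal gene table. The series held 3 libraries labelled APP/PS1 and 3 labelled wild type (WT), all from mouse hippocampus at 6 months of age. APP/PS1 mice express the transgenes APP695swe and PS1-dE9, which carry familial Alzheimer's disease mutations of the amyloid precursor protein and of presenilin. The labels used here name no transgene promoter, mouse line, sex or batch, and leave open whether replicates came from separate animals. Each library had a gene table, whose values were read as FPKM (fragments scaled to transcript length and library total), and a table of read counts for 2246 circular RNAs (circRNAs, closed rings made when the end of an RNA segment is spliced back to its start). The family was selected on the FPKM of Nme7 and the reads of its circRNAs, which had differed between labels, so the label difference of Nme7 and of its circRNAs is given as a description, any call included, and supports nothing. Below, APP/PS1 replicate 1 stands for the library so labelled, and likewise for the others.

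Nucleoside diphosphate kinases keep the pools of GTP, CTP, UTP and their deoxy forms filled by moving a phosphate from a nucleoside triphosphate, usually ATP, to a nucleoside diphosphate through a phosphorylated histidine of the enzyme. Nme1 to Nme4 form the group of closely related, catalytically active members. Nme5, Nme6 and Nme7 are more divergent, and Nme5 and Nme7 are known for their place in motile cilia, which in the brain are borne by ependymal cells. Nme7 is also known as a component of the gamma-tubulin ring complex, the template from which microtubules grow.

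The labels were checked first with App, the amyloid precursor protein gene, and Prnp, the prion protein gene, which divided the libraries as App did. App was listed at 153.1, 71.0 and 166.2 FPKM in APP/PS1 replicates 1 to 3, against 69.8, 68.5 and 145.6 FPKM in WT replicates 1 to 3. Prnp stood at 471.6, 198.6 and 463.8 FPKM across APP/PS1-labelled libraries, against 188.1, 181.5 and 457.2 FPKM across WT-labelled libraries. The library labelled APP/PS1 replicate 2 and the library labelled WT replicate 3 thus went against their labels, and results are also given in the 4 libraries left without them. The excitatory neuron markers chosen for the tissue (Slc17a7, Camk2a, Neurod6, Prox1, Wfs1 and Neurod2) were all listed, and Prox1, the lowest of them, averaged 15.1 FPKM over the 6 libraries. Total circRNA reads were 18064 to 19584 in the APP/PS1-labelled libraries and 13998 to 18866 in the WT-labelled libraries. The depth behind the FPKM values is unknown.

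Nme7 lies on chromosome 1 of the mouse genome (GRCm38.p6), from 164307524 to 164437300, and spans 129777 bases. Its RefSeq promoter window, 250 bases before to 50 bases after a transcript start, is shown because a neighbouring gene, Blzf1, starts in the same window on the opposite strand and is compared with Nme7 below. The window lies at chr1:164307422-164307721 on the plus strand. Capitals mark matches to GGGCGG (the GC box) and CCAAT (the CCAAT box), each searched on both strands.

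Nme7 promoter: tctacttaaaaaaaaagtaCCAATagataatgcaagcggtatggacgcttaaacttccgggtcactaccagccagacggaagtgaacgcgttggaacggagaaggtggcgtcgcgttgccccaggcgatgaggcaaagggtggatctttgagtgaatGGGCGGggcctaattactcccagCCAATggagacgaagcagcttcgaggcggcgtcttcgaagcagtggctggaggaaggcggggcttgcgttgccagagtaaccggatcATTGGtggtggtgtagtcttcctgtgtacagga

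The window held 1 match to GGGCGG and 3 to CCAAT, 1 of them on the minus strand, and no match overlapped another. Among 32851 RefSeq promoter windows of the same length, 35.7% held GGGCGG and 37.4% held CCAAT. Windows were matched by symbol for 6 of the 7 genes, Nme5 being the other. Nme6 held 1 match to CCAAT, Nme3 held 2 matches to GGGCGG and Nme4 held 1. Of the 2 windows of Nme2, 1 held 4 matches to GGGCGG and the other none, and the 2 windows of Nme1 held neither motif. These letter matches are a description and not evidence of binding.

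Nme2 and Nme1 were the most abundant members. Nme2 and Nme1 encode the B and A subunits of the main cytosolic enzyme, of which Nme1 is also known as the metastasis suppressor Nm23. They are neighbours on chromosome 11, at 93949814 to 93956256 and 93958925 to 93968272, and their coding sequences are so alike that reads could be divided between them or lost, so the level of each is uncertain. Nme2 was listed at 21.7, 24.5 and 21.7 FPKM in APP/PS1 replicates 1 to 3, against 20.2, 19.5 and 21.1 FPKM in WT replicates 1 to 3. The APP/PS1-labelled libraries all lay above the WT-labelled ones, APP/PS1 replicate 2 the highest. Nme1 had 16.0, 16.6 and 15.4 FPKM across APP/PS1-labelled libraries and 16.7, 16.2 and 15.5 FPKM across WT-labelled libraries, and the labels overlapped. Nme2 differed by 0.15 on the log2(FPKM + 1) scale (standard error 0.06), which did not pass the threshold of 0.05 (limma, adjusted p = 0.741 over 13700 genes), and Nme1 by -0.01 (standard error 0.05, adjusted p = 0.986). Under quantile normalization, which forces the libraries to 1 shared distribution, the Nme1 value turned to 0.01. The level of Nme2 was 1.41 ± 0.06 times that of Nme1 in APP/PS1-labelled libraries and 1.26 ± 0.09 times in WT-labelled libraries (SD, n = 3 each), with overlapping libraries.

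**Figure D1:**
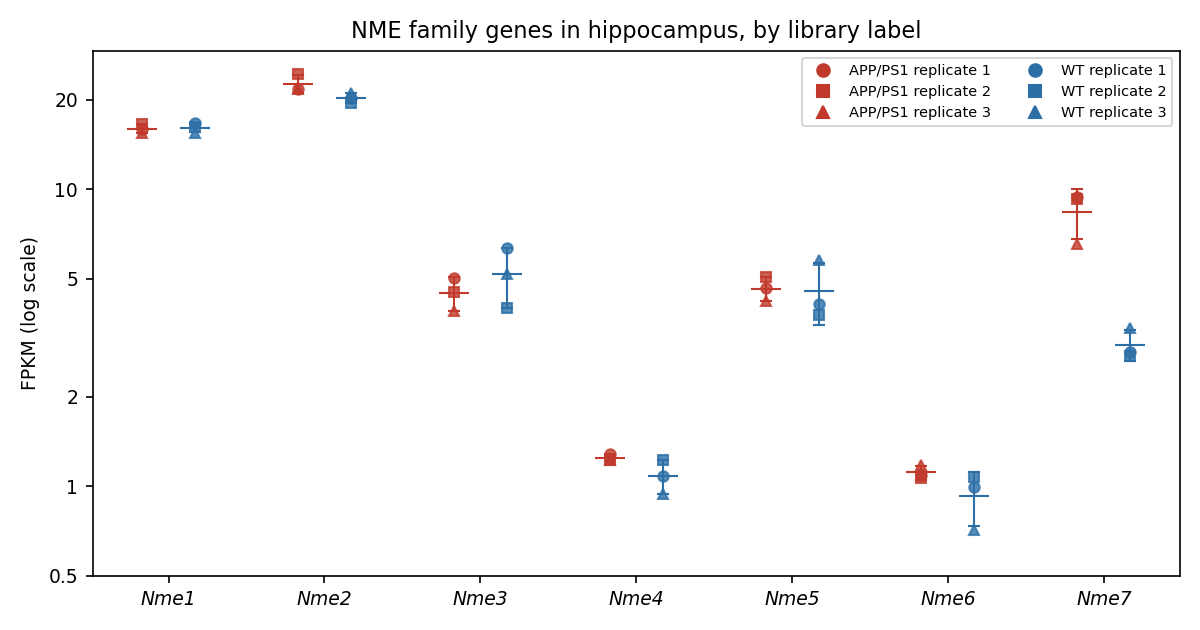
FPKM on a log axis for Nme1 to Nme7, APP/PS1-labelled libraries in red to the left of WT-labelled libraries in blue, each point 1 library, the horizontal line the mean and the bars the SD (n = 3). Nme7 averages 8.38 FPKM across APP/PS1-labelled libraries and 3.0 FPKM across WT-labelled libraries, while the points of the other genes overlap or lie close together.

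Of the mitochondrial members, Nme4 and Nme6 had the lowest levels of the family, with mean FPKM at percentiles 16.0 and 13.5 of all rows, and Nme3 stood at percentile 52.4. Nme3 and Nme4 lie on chromosome 17, at 24896500 to 24897531 and 26091734 to 26095523, and Nme6 on chromosome 9, at 109832722 to 109842974. Nme3, which is attached to the mitochondrial outer membrane, was listed at 5.02, 4.52 and 3.88 FPKM in APP/PS1 replicates 1 to 3 and at 6.36, 3.99 and 5.17 FPKM in WT replicates 1 to 3. The WT-labelled libraries were spread widely and enclosed most of the APP/PS1 values. Nme4, a mitochondrial kinase that also binds the lipid cardiolipin, had 1.29, 1.23 and 1.23 FPKM in APP/PS1 replicates 1 to 3 and 1.08, 1.22 and 0.942 FPKM in WT replicates 1 to 3. The APP/PS1 values of Nme4 all lay above the WT values, the nearest by less than 0.01 FPKM. Nme6, a divergent mitochondrial member, had 1.09, 1.06 and 1.18 FPKM across APP/PS1-labelled libraries and 0.995, 1.07 and 0.710 FPKM across WT-labelled libraries, overlapping between labels. All 7 genes passed the filter of at least 1 FPKM in at least 3 libraries, Nme6 through 3 APP/PS1-labelled libraries and 1 WT-labelled library. By limma the differences of Nme3 (-0.16), Nme4 (0.11) and Nme6 (0.14) did not pass, with adjusted p = 0.902, 0.878 and 0.873. Their intervals at 95%, -0.51 to 0.19, -0.09 to 0.31 and -0.10 to 0.37, leave room for changes in either direction.

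Nme5, a ciliary member on chromosome 18, was listed at 4.63, 5.05 and 4.19 FPKM in APP/PS1 replicates 1 to 3. In WT replicates 1 to 3 it had 4.12, 3.76 and 5.77 FPKM, so WT replicate 3 was the highest of all 6 and the labels overlapped. The difference was 0.03 (standard error 0.14; limma, adjusted p = 0.979), and it turned negative, to -0.02, -0.02 and -0.07, without APP/PS1 replicate 2, WT replicate 1 or WT replicate 2. The 8 ependymal markers chosen for this comparison, among them Foxj1, the master regulator of motile cilia, summed to 21.1, 18.1 and 13.9 FPKM across APP/PS1-labelled libraries and to 14.8, 17.1 and 25.9 FPKM across WT-labelled libraries. Their sum too was highest in WT replicate 3, but Tmem212 was highest in APP/PS1 replicate 1 (2.89 FPKM, against 2.58 FPKM in WT replicate 3). Between WT replicates 1 and 2 the orders differed, since the sum was higher in WT replicate 2 and Nme5 in WT replicate 1. None of the 8 was at 0 in all libraries, the lowest being Pifo at 0.824 FPKM on average, and their part in the level of Nme5 was not tested.

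Nme7, which carries a pair of kinase domains, was listed at 9.39, 9.23 and 6.53 FPKM in APP/PS1 replicates 1 to 3. It was listed at 2.84, 2.74 and 3.41 FPKM in WT replicates 1 to 3. Every APP/PS1-labelled library lay above every WT-labelled one, with APP/PS1 replicate 3 the nearest to the other label and WT replicate 3 the nearest from the other side. The mean was 8.38 ± 1.60 FPKM in APP/PS1-labelled libraries and 3.0 ± 0.364 FPKM in WT-labelled libraries (SD, n = 3 each), a ratio of 2.80. On the log2(FPKM + 1) scale, which understates changes of low genes, the difference was 1.22, with 95% limits of 0.90 and 1.54. It did not pass over all genes by limma (adjusted p = 0.0723). Of the 13700 genes tested, 5 had a larger positive difference and 13 had a larger one in either direction. Nme7 was selected on this difference, so the limits lack their stated coverage, and limits and ranks are a description only. With a pseudocount of 0.1 in place of 1 the difference was 1.44. The 2 libraries that App and Prnp set apart from their labels did not stand apart here: the library labelled APP/PS1 replicate 2 had 9.23 FPKM and the library labelled WT replicate 3 had 3.41 FPKM, each on the side of its label. In the 4 libraries without them the difference was again 1.22. In bulk tissue a change in the number of cells of a type and a change in RNA per cell cannot be told apart.

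**Figure D2:**
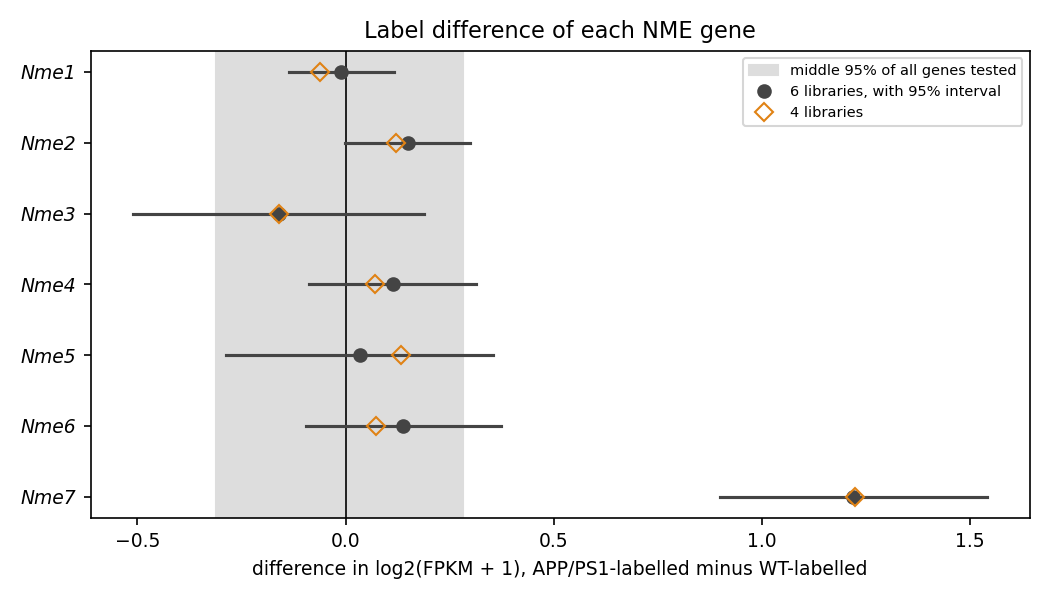
Difference in log2(FPKM + 1), APP/PS1-labelled minus WT-labelled, for each NME gene, with its 95% interval (filled circles, 6 libraries) and in the 4 libraries (open diamonds). The grey band holds the middle 95% of all genes tested, from -0.31 to 0.28, and Nme7 at 1.22 is the 1 member outside it. Nme7 was selected on its label difference, so its interval is a description only.

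Counted over the family, 0 of 7 genes passed an adjusted p of 0.05, where 0.0219% of genes tested did in either direction and 0.0073% on the higher side. With Nme7 set aside, 0 of the other 6 genes had an unadjusted p under 0.05 (6.69% of genes tested did), and 2 of the 6, Nme2 and Nme4, had labels that did not overlap on the higher side (5.38% of genes tested). That count rests on 2 genes with differences of 0.15 and 0.11. The median difference of the 6 was 0.07, beside -0.0009 over all genes tested. In the 4 libraries the 6 values ran from -0.16 for Nme3 to 0.13 for Nme5, with adjusted p from 0.595 to 0.865 by limma. There 0 of 7 passed, where 0.197% of genes tested did in either direction and 0.0803% on the higher side, and 0 of the other 6 had an unadjusted p under 0.05, where 9.18% did.

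The order of levels within the family differed by label in the place of Nme7 and in the order of Nme3 and Nme5. In APP/PS1-labelled libraries the order of mean FPKM was Nme2, Nme1, Nme7, Nme5, Nme3, Nme4 and Nme6, and the neighbours Nme5 and Nme3 had overlapping ranges. In WT-labelled libraries it was Nme2, Nme1, Nme3, Nme5, Nme7, Nme4 and Nme6, where the ranges of Nme3 and Nme5 and those of Nme4 and Nme6 overlapped. Nme7 made up 15.9%, 14.9% and 12.1% of the summed FPKM of the 7 genes in APP/PS1 replicates 1 to 3, against 5.44%, 5.64% and 6.49% in WT replicates 1 to 3. Relative to Nme5, the other ciliary member, the level of Nme7 was 1.80 ± 0.236 in APP/PS1-labelled libraries and 0.669 ± 0.0704 in WT-labelled libraries (SD, n = 3 each). The sum of the family without Nme7 was 50.1 ± 2.69 FPKM in APP/PS1-labelled libraries and 48.1 ± 2.05 FPKM in WT-labelled libraries, with overlapping libraries.

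Of 257 circRNAs listed with coordinates, 4 lay inside an NME gene, all of them in Nme7 and on its plus strand. The other 1989 circRNAs carry a database number and were not matched to genes here. The coordinates were read on GRCm38, where 254 of the 257 (98.8%) lay inside a gene, against 31.1% and 31.5% after a shift of 1000000 bases down or up, although the submitters' processing notes list mm9. Nme7 held 4 circRNAs, where the median over 201 hosts with a single assignment was 1. By reads over the 6 libraries Nme7 ranked 5 with 203 reads.

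The 4 Nme7 circles combine 2 starts that lie 3 bases apart, 164312852 and 164312855, with 2 ends, 164347879 and 164403077. The first start lies 5328 bases inside the gene. Circles to the near end span 35028 or 35025 bases of the genome and circles to the far end 90226 or 90223 bases. Whether these ends fall on exon borders was not analysed here.

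**Figure D3:**
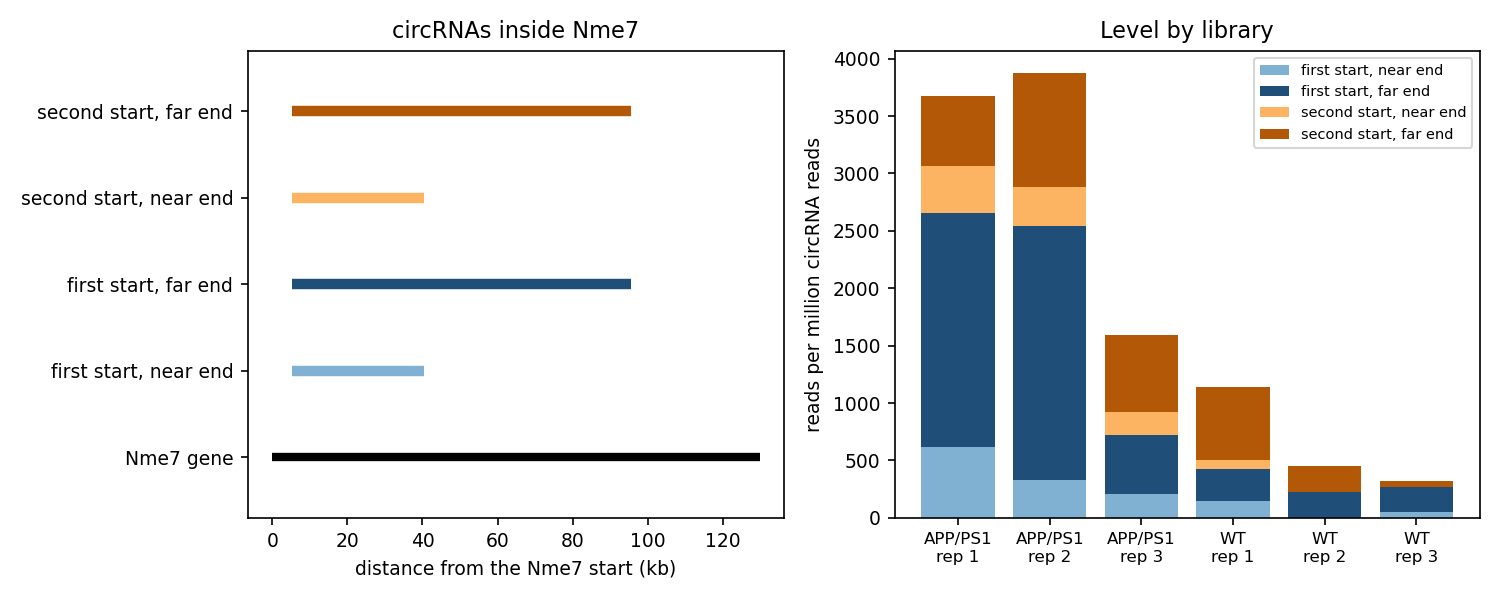
On the left, the extent of the 4 circRNAs along the Nme7 gene, as distance in kb from the gene start. On the right, their level in each library (CPM, reads per 1000000 circRNA reads) as stacked bars, 1 colour for each circle: totals are 3676, 3875 and 1594 in APP/PS1 replicates 1 to 3 and 1143, 448 and 318 in WT replicates 1 to 3.

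The circle from the first start to the far end was the most abundant. It had 40, 40 and 10 reads in APP/PS1 replicates 1 to 3, against 4 reads in each of WT replicates 1 to 3. The labels did not overlap, and APP/PS1 replicate 3 was far below the other APP/PS1-labelled libraries. Scaled to circRNA reads it averaged 1590 ± 936 CPM in APP/PS1-labelled libraries and 241 ± 39.5 CPM in WT-labelled libraries (SD, n = 3 each). The fitted log2 difference was 2.71 in 6 libraries and 2.33 in the 4 libraries. By edgeR it was the 1 Nme7 circle to pass an adjusted p of 0.05. The share of the 2132 circRNAs tested that passed, 0.0469%, is this same circle and no other. Nothing is read from the call, since the genes were chosen on this comparison. Over 10 alternatives 5 kept the call, and it was lost in the 4 libraries, where 0 circRNAs passed, and without APP/PS1 replicate 2, WT replicate 1, WT replicate 2 or WT replicate 3.

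The circle from the second start to the far end had 12, 18 and 13 reads in APP/PS1 replicates 1 to 3 and 9, 4 and 1 reads in WT replicates 1 to 3. At 613 CPM, APP/PS1 replicate 1 lay below WT replicate 1 at 643 CPM, so this circle overlapped between labels. Its fitted log2 difference was 1.39 in 6 libraries and 0.62 in the 4 libraries, 2.41 without WT replicate 1 and 0.86 without WT replicate 3.

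The near-end circles were rarer. From the first start, 12, 6 and 4 reads were counted in APP/PS1 replicates 1 to 3 and 2, 0 and 1 reads in WT replicates 1 to 3. From the second start there were 8, 6 and 4 reads in the APP/PS1-labelled libraries and 1, 0 and 0 reads in the WT-labelled libraries. Summed over libraries and scaled to circRNA reads, the ratio of APP/PS1-labelled to WT-labelled libraries was 6.51 (95% exact interval 1.96 to 34.0) for the first start and 16.0 (2.52 to 666) for the second. These intervals cover counting error only. The second-start circle reached the filter of 2 reads in 3 libraries through APP/PS1-labelled libraries alone, so it could enter the test by no other route. Their fitted log2 differences were 2.54 and 3.57 in 6 libraries and 2.55 and 3.02 in the 4 libraries. Without WT replicate 1 the second was 5.59, where both WT-labelled libraries left were at 0 reads, so this fitted value depends on the prior count. Over the 4 circles, labels did not overlap on the higher side for 3 (6.52% of circRNAs tested, with 6.57% on the lower side). By edgeR all 4 circles had an unadjusted p under 0.05 in 6 libraries (5.3% of circRNAs tested), and 2 of the 4 circles in the 4 libraries (5.25%), of which again nothing is read.

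Together the 4 circles held 72, 70 and 31 reads in APP/PS1 replicates 1 to 3 and 16, 8 and 6 reads in WT replicates 1 to 3. As a share of circRNA reads this was 0.368% (95% exact binomial interval 0.288% to 0.463%), 0.388% (0.302% to 0.489%) and 0.159% (0.108% to 0.226%) in the APP/PS1-labelled libraries. In the WT-labelled libraries it was 0.114% (0.0653% to 0.186%), 0.0448% (0.0194% to 0.0883%) and 0.0318% (0.0117% to 0.0692%). The interval of APP/PS1 replicate 3 overlapped that of WT replicate 1, while those of APP/PS1 replicates 1 and 2 overlapped no WT interval. The ratio of the mean shares was 4.79. In the 4 libraries it was 3.31, and without WT replicate 1 it was 7.96.

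Circle mix was compared by the end and the start used. Far-end circles made up 72.2% (60.4% to 82.1%), 82.9% (72.0% to 90.8%) and 74.2% (55.4% to 88.1%) of the Nme7 circle reads in APP/PS1 replicates 1 to 3. In WT replicates 1 to 3 they made up 81.3% (54.4% to 96.0%), 100% (63.1% to 100%) and 83.3% (35.9% to 99.6%), so the intervals overlapped and no shift in the end used was detectable at 6 to 16 reads a library. The first start took 72.2%, 65.7% and 45.2% of reads in APP/PS1 replicates 1 to 3, against 37.5%, 50% and 83.3% in WT replicates 1 to 3, and the labels overlapped.

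Gene level and circle level were set side by side in each library. The libraries with the highest Nme7 FPKM, APP/PS1 replicates 1 and 2 at 9.39 and 9.23, also had the highest circle level, 3676 and 3875 CPM. APP/PS1 replicate 3, at 6.53 FPKM, had 1594 CPM. Among the WT-labelled libraries the order did not follow: WT replicate 3 had the highest FPKM of the 3 (3.41) and the lowest circle level (318 CPM), while WT replicate 1, at 2.84 FPKM, had 1143 CPM. The circle level divided by the FPKM of the gene was 391.7, 420 and 244 in APP/PS1 replicates 1 to 3 and 402, 164 and 93.2 in WT replicates 1 to 3, and the labels overlapped. The points fall into separate clusters by label with 3 libraries in each, so a correlation cannot be tested.

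**Figure D4:**
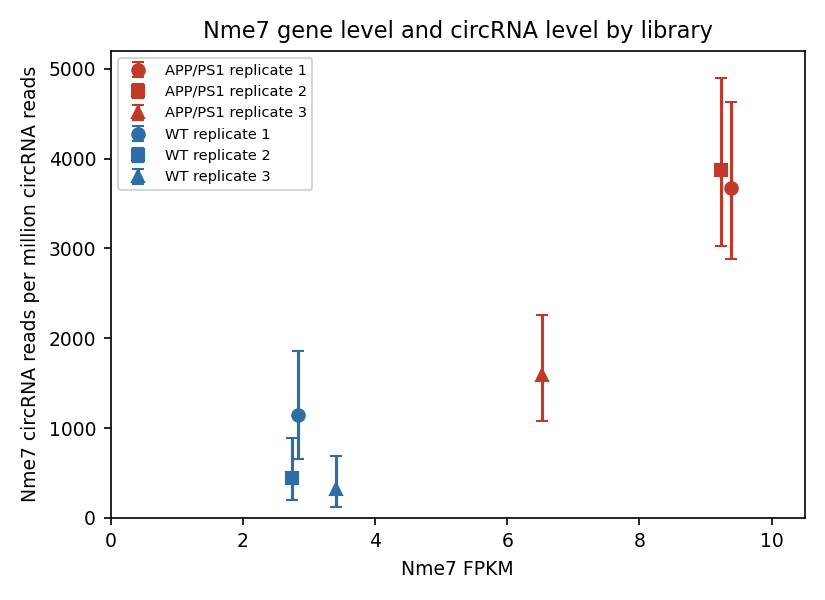
Nme7 FPKM on the horizontal axis against the summed CPM of the 4 Nme7 circRNAs on the vertical axis, 1 point per library, with exact 95% binomial intervals. The APP/PS1-labelled libraries (red) run from 6.53 to 9.39 FPKM, to the right of all WT-labelled libraries (blue), which run from 2.74 to 3.41 FPKM.

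The 5 nearest tested protein-coding genes on each side of Nme7 on chromosome 1 were then read. Blzf1, which encodes a Golgi protein, lies 37 bases from the first base of the Nme7 gene and runs on the opposite strand. Its 2 RefSeq promoter windows share 284 and 287 of 300 bases with the window printed above. That window was set on a transcript start farther inside Nme7. Blzf1 was listed at 3.81, 3.995 and 3.84 FPKM in APP/PS1 replicates 1 to 3, against 3.18, 3.04 and 2.99 FPKM in WT replicates 1 to 3. The labels did not overlap. The difference was 0.26 (standard error 0.06; 0.23 in the 4 libraries) and did not pass over all genes by limma (adjusted p = 0.531), being smaller than that of Nme7 at 1.22. Atp1b1, the beta subunit of the sodium-potassium pump, overlaps the last 202 bases of Nme7. It had 349.6 ± 12.8 FPKM in APP/PS1-labelled libraries and 343.5 ± 18.4 FPKM in WT-labelled libraries (SD, n = 3 each; difference 0.03, adjusted p = 0.963 by limma). The kit is not stated to keep strand, so reads of this overlap cannot be told apart, nor can those of Gm39690, a long non-coding gene inside Nme7 at 164417492 to 164418573.

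Farther out, Slc19a2, a thiamine transporter gene 42139 bases away, had 1.93, 2.44 and 2.64 FPKM across APP/PS1-labelled libraries and 3.20, 2.91 and 4.49 FPKM across WT-labelled libraries, without overlap on the lower side (difference -0.43, and -0.31 in the 4 libraries; adjusted p = 0.664 by limma). Ccdc181, F5, Mettl18, Tiprl, Gpr161 and Dcaf6 overlapped between labels, with differences from -0.09 to 0.26, and Sft2d2 did not overlap, at 0.11. Not all of these adjoin Nme7: Mettl18 lay 310281 bases away, and Sft2d2, Tiprl, Gpr161 and Dcaf6 lay 737041 to 892200 bases away. By limma 0 of the 10 neighbours passed, at adjusted p from 0.531 to 0.995, where 0.0219% of all genes tested did in either direction. Labels did not overlap on the higher side for 5.38% of all genes tested and on the lower side for 6.51%.

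**Figure D5:**
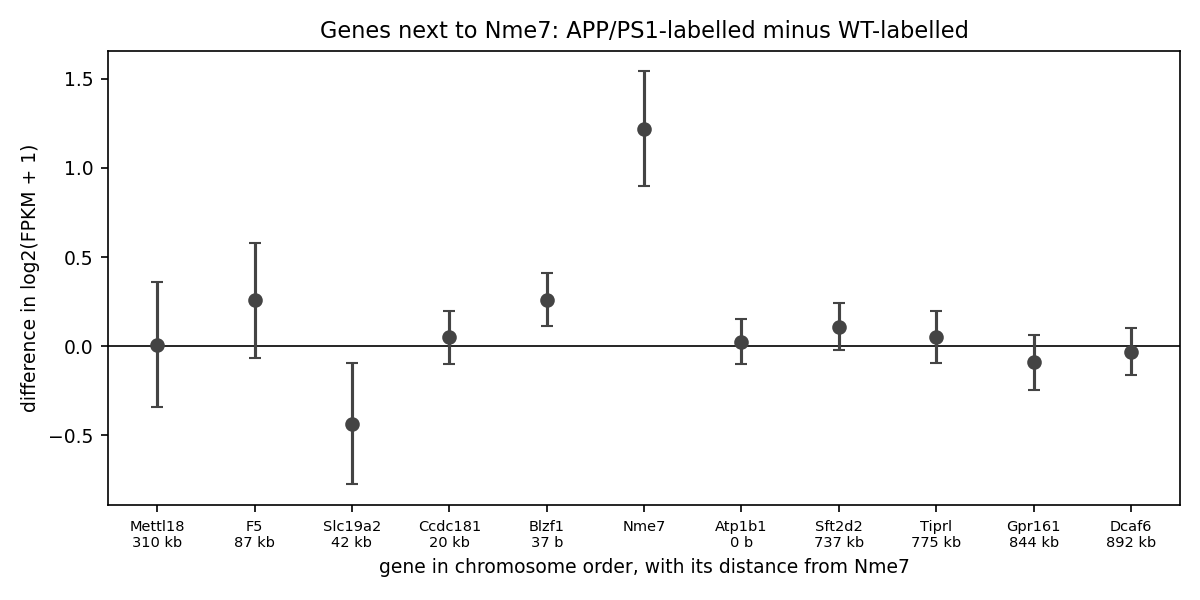
Difference in log2(FPKM + 1), APP/PS1-labelled minus WT-labelled, with 95% intervals, for Nme7 and the 5 nearest tested genes on each side, in chromosome order and not to scale. Nme7 stands at 1.22, Blzf1 at 0.26 and Slc19a2 at -0.43. The interval of Nme7, which was selected on its label difference, is a description only.

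Other genes of nucleotide supply gave no call. Of 40 genes of NTP and dNTP synthesis (adenylate and other nucleotide kinases, ribonucleotide reductase and the synthases upstream), 36 were tested, 0 passed over all genes by limma, and 3 higher and 1 lower had an unadjusted p under 0.05, where 2.85% of all genes tested did as higher and 3.83% as lower. Their median difference was 0.01. Adssl1, an adenylosuccinate synthase of AMP synthesis, had 4.36 ± 0.343 FPKM in APP/PS1-labelled and 3.36 ± 0.356 FPKM in WT-labelled libraries, a difference of 0.30. Prps2, which makes the ribose phosphate donor PRPP, had 9.54 ± 0.307 FPKM in APP/PS1-labelled and 8.21 ± 0.518 FPKM in WT-labelled libraries. Ctps2, a CTP synthase, had 6.69 ± 0.284 FPKM in APP/PS1-labelled and 5.88 ± 0.229 FPKM in WT-labelled libraries (SD, n = 3 each, here and for the lists that come next). By limma, adjusted p for these 3 ran from 0.623 to 0.718.

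The partner list joins proteins known to bind NME enzymes with the protein histidine phosphatases, which remove phosphate from histidine. All 15 were tested, 0 passed, 1 higher and 1 lower had an unadjusted p under 0.05 (6.69% of all genes tested did in either direction), and the median difference was 0.01. Phpt1, a phosphohistidine phosphatase, had 15.7, 15.5 and 13.96 FPKM in APP/PS1 replicates 1 to 3 and 13.5, 13.4 and 13.2 FPKM in WT replicates 1 to 3. The labels did not overlap (difference 0.16, adjusted p = 0.696 by limma). Trex1, a DNA exonuclease of the SET complex, had 0.883 ± 0.224 FPKM in APP/PS1-labelled and 1.27 ± 0.164 FPKM in WT-labelled libraries, and Tiam1, a Rac exchange factor, had 14.3 ± 0.487 FPKM in APP/PS1-labelled and 15.3 ± 0.788 FPKM in WT-labelled libraries.

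Genes of the structures that Nme7 belongs to gave no call either. Of 13 genes of the gamma-tubulin ring complex and its anchors 12 were tested and 0 passed, with 1 higher and 1 lower at an unadjusted p under 0.05 (6.69% of all genes tested in either direction) and a median of -0.01. Mzt1, a small subunit of the complex, had 18.3, 14.4 and 13.96 FPKM across APP/PS1-labelled libraries and 11.2, 13.9 and 11.8 FPKM across WT-labelled libraries, without overlap, though APP/PS1 replicate 3 and WT replicate 2 differed by less than 0.1 FPKM (difference 0.31, adjusted p = 0.715 by limma). Tubgcp4, another subunit, had 2.41 ± 0.137 FPKM in APP/PS1-labelled and 3.09 ± 0.533 FPKM in WT-labelled libraries, and Tubg1, gamma-tubulin itself, had 10.96 ± 0.534 FPKM in APP/PS1-labelled and 9.88 ± 0.983 FPKM in WT-labelled libraries. Of 34 axoneme genes 19 were tested, 0 passed, 1 was higher at an unadjusted p under 0.05 (2.85% of all genes tested), and the median was -0.06. That gene was Ccdc113, a ciliary coiled-coil protein gene, at 2.12, 2.09 and 1.97 FPKM across APP/PS1-labelled libraries and 1.09, 1.45 and 1.53 FPKM across WT-labelled libraries (difference 0.38, adjusted p = 0.531 by limma). Mns1, at 0.963 ± 0.376 FPKM in APP/PS1-labelled and 1.40 ± 0.174 FPKM in WT-labelled libraries, and Rsph1, a radial spoke gene at 4.83 ± 1.22 FPKM in APP/PS1-labelled and 6.58 ± 1.43 FPKM in WT-labelled libraries, had negative differences that did not pass. In the 4 libraries the medians of the nucleotide, partner, gamma-tubulin and axoneme lists were 0.02, -0.01, 0.03 and -0.01, so those of the partner and gamma-tubulin lists changed sign.

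Markers of cell types that could carry Nme7 were read beside it. The 8 ependymal markers had a median difference of -0.07 over the 7 tested, 2 positive and 5 negative, and of 0.13 in the 4 libraries, where the sign turned. Of the 7, 1 was lower at an unadjusted p under 0.05 by limma (3.83% of all genes tested). All 8 choroid plexus markers had positive differences in 6 libraries, with a median of 0.30. In the 4 libraries their median was 0.13, and Kl turned negative, at -0.07. Folr1, Kcne2 and Sostdc1, 3 of the 8, did not overlap between labels (5.38% of all genes tested on the higher side) and had an unadjusted p under 0.05 (2.85% of all genes tested as higher). Sostdc1, a secreted antagonist of BMP and Wnt signals, had 28.5, 23.7 and 25.6 FPKM in APP/PS1 replicates 1 to 3 and 20.1, 17.04 and 19.9 FPKM in WT replicates 1 to 3 (difference 0.43, adjusted p = 0.367 by limma). The sum of the 8 was mostly Ttr, the carrier of thyroid hormone, and ran from 1123 to 1400 FPKM in APP/PS1-labelled libraries and from 864 to 1212 FPKM in WT-labelled libraries, overlapping. Without Ttr, a sum chosen after the values were seen, the other 7 came to 73.3 to 82.6 FPKM in APP/PS1-labelled and 58.5 to 69.5 FPKM in WT-labelled libraries, without overlap. The 3 oligodendrocyte markers summed to 217 to 266 FPKM in APP/PS1-labelled and 169 to 232 FPKM in WT-labelled libraries, with a median difference of 0.25, and 0.41 in the 4 libraries. Of the 3, 2 were higher at an unadjusted p under 0.05 by limma (2.85% of all genes tested). Of the 3, 1 did not overlap between labels on the higher side (5.38% of all genes tested). The 6 excitatory neuron markers summed to 468 to 482 FPKM in APP/PS1-labelled and 486 to 519 FPKM in WT-labelled libraries, without overlap. All 6 had negative differences, with a median of -0.06, and -0.10 in the 4 libraries. Of the 6, 2 did not overlap between labels on the lower side (6.51% of all genes tested). Of the 6, 1 was lower at an unadjusted p under 0.05 by limma (3.83% of all genes tested). Interneuron, astrocyte, microglia and endothelial markers (3 each) overlapped between labels in their sums, with median differences of 0.08, 0.08, -0.05 and 0.02. No marker of these lists was at 0 in all libraries, none passed over all genes by limma, and their part in the Nme7 result was not tested.

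The genes most like each member were taken by Pearson correlation of log2(FPKM + 1) over the 6 libraries, a description for which no p is given, since the top of 13700 genes is high by choice. For Nme7 they were Zfp691 (r = 0.99), Wsb1 (0.99) and Coprs (0.99). Their own differences were far smaller than that of Nme7, at 0.21, 0.10 and 0.16. Like Nme7 they did not overlap between labels (5.38% of all genes tested on the higher side). Nothing is read from this, since they were chosen by likeness to Nme7 over the same libraries. The genes running most opposite to Nme7 were Gm45591 (r = -0.99), Fbxl12 (-0.99) and Gpt2 (-0.99). For Nme5 the nearest were Ctbp2, Fndc3b and St8sia6, and for Nme1 Gm44190, Vamp2 and Cyc1. None of those nearest to Nme5 was on the axoneme list, but with 19 of its genes among the 13700 this was likely in any case. Pbx3, Eed and Mrpl18 were nearest to Nme2, Srp72, Gm36527 and Cdc42se2 to Nme3, Tmem25, Naglu and Smyd4 to Nme4, and Sgpp2, Stac2 and Myo5a to Nme6. Within the family Nme4 and Nme6 ran together most closely (r = 0.92), both lowest in WT replicate 3.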

How the data were processed

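Hippocampal RNA of 6 libraries, 3 labelled APP/PS1 and 3 labelled WT, was extracted in Trizol and made into libraries with a TruSeq kit, per the labels' protocols. Gene values deposited by the authors were taken as FPKM from their decimals and totals, since no header names the unit. circRNA values deposited by the authors are whole-number read counts. The submitters' processing notes list FastQC, HISAT2, StringTie and mm9 without roles, and name no circRNA caller. limma 3.58.1 (trend, robust; R 4.3.3) was run on log2(FPKM + 1) of genes reaching 1 FPKM in 3 or more libraries, and edgeR 4.0.16 (quasi-likelihood, TMM) on circRNAs reaching 2 reads in 3 or more. Label was the only term, and Benjamini-Hochberg adjustment ran over all features tested. Scripts were tested on simulated data. Without a statement that replicates are separate animals, p-values reflect the spread among libraries alone, and that spread may be technical. A chi-square per degree of freedom over circRNA counts was 2.03 to 2.39 for all pairs of libraries, so every pair differed by more than counting error. That does not exclude separate libraries made from the same RNA. The members, lists and tests were chosen with earlier results of these data known. The rule for names took all 7 members, up to 3 genes per list by smallest p, the 5 nearest tested genes on each side of Nme7 and the 3 genes most like each member. DESeq2 1.42.0, other filters, a pseudocount of 0.1, quantile normalization, limma without trend, a replicate block and libraries left out were the alternatives.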

Additional observations from a re-analysis of the deposited data

How the results depend on the processing

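The differences of Nme2, Nme3, Nme4 and Nme6 kept their sign under every alternative tried, but with single libraries left out they ran from 0.09 to 0.18, from -0.31 (without WT replicate 2, unadjusted p = 0.0456 by limma) to -0.03 (without WT replicate 1), from 0.06 to 0.16 and from 0.06 to 0.19. Over 76 values for the 6 genes other than Nme7 none passed an adjusted p of 0.05 by limma. The unadjusted p of Nme2, 0.0511 in the main fit, fell under 0.05 in some alternatives by limma. It was 0.0195 under quantile normalization, 0.0401 without WT replicate 3 and 0.0485 without APP/PS1 replicate 3. Nme1, at -0.01, turned to 0.0098 under quantile normalization and ran from -0.0369 to 0.0149 with single libraries left out (0.0149 without APP/PS1 replicate 3, 0.0133 without WT replicate 1). Nme5, at 0.03, ran from -0.0685 to 0.186 with single libraries left out (-0.02 without APP/PS1 replicate 2, -0.017 without WT replicate 1, -0.0685 without WT replicate 2). Nme7 ran from 1.14 to 1.37 with single libraries left out and was 1.44 with a pseudocount of 0.1. Over 13 alternatives it passed in 1, without APP/PS1 replicate 3 (limma, adjusted p = 0.0205, range 0.0205 to 0.512). Over all genes, 1 passed as higher and 2 as lower. In the 4 libraries the counts were 11 and 16, and with single libraries left out they ran from 1 to 8 and from 1 to 22. By edgeR 1 circRNA passed as higher and 0 as lower (113 had an unadjusted p under 0.05), and DESeq2 gave the same counts. In the 4 libraries 0 passed, and with single libraries left out each count was 0 to 1. The 1 lower circRNA appeared without APP/PS1 replicate 2, and the cause was not tested. The fitted differences of the 2 near-end circles ran from 1.99 to 3.53 and from 3.06 to 5.59 with single libraries left out, and those of the 2 far-end circles from 2.40 to 3.13 and from 0.86 to 2.41. The log2 ratio of summed Nme7 circles ran from 1.94 to 2.99 with single libraries left out. The replicate block left 1 gene higher and 0 lower, with Nme7 at 1.22 on the log2 scale (limma, adjusted p = 0.512), and 1 circRNA higher. Same-numbered libraries deviated from their label means with correlations of 0.01, -0.06 and -0.09, against -0.05 to 0.10 for libraries of unlike number. No pairing by number showed in these values, but they cannot exclude it. Nme4 and Nme6 had no value under a filter of 3 FPKM. Depth behind FPKM is unknown, and 6 to 16 circle reads per WT-labelled library limit what circle mix can show.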
